A study of Rattus norvegicus with 11 samples.

Results

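The heat shock proteins of the cytosol and the mitochondria were followed in rat alveolar epithelial cells through 7 genes: the small heat shock proteins Cryab and Hspb1, the HSP70 genes Hspa8 and Hspa1b, the HSP90 gene Hsp90ab1, and the mitochondrial chaperonin genes Hspd1 and Hspe1. Every probe set annotated to exactly 1 of these genes was taken, which gave 14 of the 8740 probe sets tested and 5 of the 7 genes. Cryab (Entrez gene 25420) had 2 such probe sets, Hspb1 (24471) had 4, Hsp90ab1 (301252) had 4, Hspd1 (63868) had 2 and Hspe1 (25462) had 2. The 2 probe sets of Hspa8 and the 4 of Hspa1b were annotated to other genes as well, as was 1 more of Hspb1, and none of these were used.

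RNA came from rat type II (TII) cells on day 7 of culture (3 arrays), from type I (TI) cells isolated and used fresh on day 0 (4 arrays) and from TII cells isolated and used fresh on day 0 (4 arrays). TI cells are the flat cells that cover most of the alveolar surface, and TII cells are the cuboidal cells that make surfactant. The groups follow the sample descriptions, since the source field calls all 11 samples isolated TI cells and every title begins its cell name with TypeI, followed by a number whose meaning the labels do not explain. Strain, age, isolation procedure and culture conditions are not stated in the labels, and no label says that arrays came from separate animals, so p-values measure only the spread between these arrays.

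Heat shock proteins are chaperones: they hold unfolded proteins, help them fold and pass them on for repair or degradation. Small heat shock proteins hold unfolding proteins without using ATP, HSP70 with its J-protein partners and HSP90 with its co-chaperones fold clients with ATP, and HSP60 with its lid HSP10 encloses proteins inside mitochondria. Many of their genes are induced by heat shock factor 1, which binds repeats of nGAAn in promoters, and isolating cells from a tissue is known to switch on stress genes. Cryab is best known from lens and from heart and skeletal muscle.

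Values are log2 signals per probe set as deposited, and array medians lay between 5.43 and 5.51. The 5 measured type I markers averaged 7.50 to 8.15 on cultured TII arrays, 9.76 to 10.2 on fresh TI arrays and 6.18 to 6.25 on fresh TII arrays. The 5 measured type II markers averaged 5.94 to 6.77 on cultured TII arrays, 8.34 to 9.84 on fresh TI arrays and 11.93 to 12.05 on fresh TII arrays. Between the fresh groups the markers thus stood higher in the group of their label. On cultured TII arrays the type II markers averaged lower than on all fresh arrays, and the type I average lay between the fresh groups. Not every marker followed its average. The type I marker Cav1 averaged 5.86 in cultured TII, 9.67 in fresh TI and 5.92 in fresh TII cells. The type II marker Muc1 read 6.48 on cultured array 1, above fresh TI arrays 1 and 4 at 6.32 and 6.02. The surfactant gene Sftpc still read 10.73 to 12.5 on fresh TI arrays. The median probe set differed by 0.125 (log2) between fresh TI and fresh TII, by -0.010 between cultured TII and fresh TII, and by -0.131 between cultured TII and fresh TI, and the differences below are to be read against those shifts. Since 54.7%, 33.4% and 59.9% of all probe sets passed the threshold in these comparisons, a call by itself sets no gene apart.

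Cryab, the small heat shock protein also known as alpha B-crystallin, was high in fresh TI cells and in cultured TII cells and low in fresh TII cells. With the probe set M55534mRNA_s_at its signal was 9.34, 9.07 and 8.34 (log2) in cultured TII cells, 9.23, 9.26, 9.44 and 9.22 in fresh TI cells, and 4.81, 4.56, 4.98 and 4.41 in fresh TII cells. With X60351cds_s_at it was 9.06, 8.83 and 8.38 in cultured TII cells, 9.31, 9.64, 9.56 and 9.43 in fresh TI cells, and 5.56, 5.52, 5.74 and 5.43 in fresh TII cells. All fresh TII arrays lay far below every other array, with no overlap on either probe set, and cultured array 3 was the lowest of the cultured arrays on both. In bulk RNA, fewer cells that express a gene and less RNA per cell cannot be told apart.

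Between fresh TI and fresh TII cells, Cryab differed by 4.60 ± 0.18 (log2, SE; 24.3-fold, adjusted p = 9.58e-10) with M55534mRNA_s_at and by 3.92 ± 0.13 (15.2-fold, adjusted p = 3.19e-10) with X60351cds_s_at. Cultured TII cells stood above fresh TII cells by 4.23 ± 0.20 (18.8-fold, adjusted p = 2.83e-09) and 3.20 ± 0.14 (9.16-fold, adjusted p = 1.72e-09) on the same probe sets. So both probe sets rose in each of these comparisons. Between cultured TII and fresh TI cells they gave different calls. M55534mRNA_s_at differed by -0.37 ± 0.20 (adjusted p = 0.119, 95% interval -0.80 to 0.06), with overlapping arrays. X60351cds_s_at fell by 0.73 on the log2 scale in cultured cells (adjusted p = 0.00081), with no overlap, and stood at -1.17 after quantile normalization. The first probe set passed the threshold as well in 3 of 17 alternative fits. Among them were quantile normalization, at -0.79 (adjusted p = 0.00448), and leaving out cultured array 1, at -0.58 (adjusted p = 0.0227). Without cultured array 3 this probe set stood at -0.08 (adjusted p = 0.652).

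**Figure D1:**
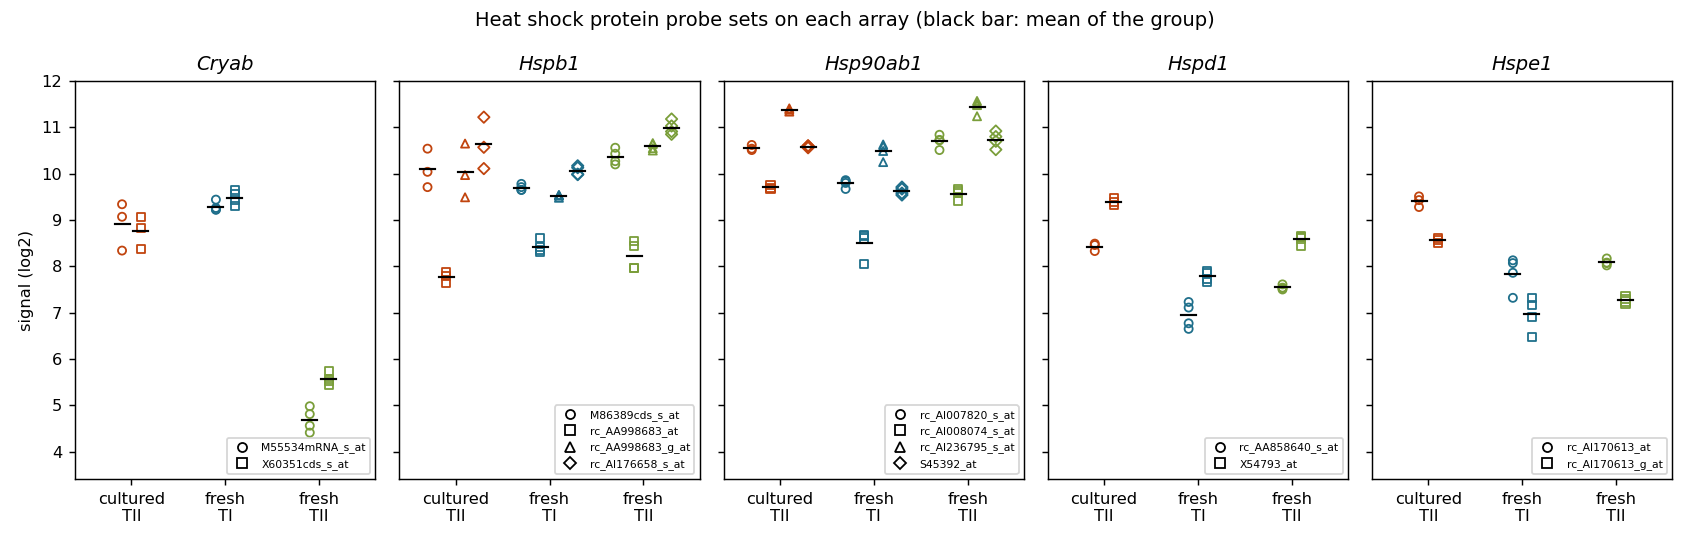
Signal (log2) of the 14 heat shock protein probe sets on each array, by gene, for cultured TII, fresh TI and fresh TII cells; symbols tell the probe sets of a gene apart and black bars are group means. Cryab sits between 8.34 and 9.64 in cultured TII and fresh TI cells and between 4.41 and 5.74 in fresh TII cells.

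Because muscle cells express Cryab strongly, 14 measured muscle markers were set beside it. Their mean signal was 5.80 to 5.97 on cultured TII arrays, 5.32 to 5.57 on fresh TI arrays and 5.31 to 5.39 on fresh TII arrays. In fresh TI against fresh TII cells 4 of the 14 were higher and 1 was lower, against 33% and 21.2% of all genes. The median difference of the 14 was 0.11, against 0.111 over all genes. The 4 higher ones were the smooth muscle myosin Myh11 at 0.32 ± 0.10, the cardiac actin gene Actc1 at 0.32 ± 0.09, the actin-binding protein gene Tagln at 0.28 ± 0.11 and the smooth muscle actin gene Actg2 at 0.18 ± 0.07, and the lower one was the skeletal actin gene Acta1 at -0.43 ± 0.17. Myh11 read 4.52 to 4.89 in fresh TI cells and 4.23 to 4.61 in fresh TII cells. Desmin (Des) read 6.18 to 6.54 in fresh TI cells and 6.0 to 6.21 in fresh TII cells, which did not pass the test. The part of muscle cells in the Cryab signal of fresh TI cells was not tested.

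Some fibroblast markers moved with Cryab between the fresh groups. Of 8 measured, 4 were higher and none lower in fresh TI than in fresh TII cells, against 33% and 21.2% of all genes. The median of the 8 was 0.75, against 0.111 over all genes. Their mean signal was 6.45 to 6.97 on fresh TI arrays and 5.57 to 6.01 on fresh TII arrays. The 4 were the collagen genes Col3a1 at 2.52 ± 0.47, Col1a2 at 1.33 ± 0.37 and Col1a1 at 1.31 ± 0.34, and the elastin gene Eln at 1.82 ± 0.20. With brightest probe sets, Lum at 0.19 ± 0.10, Thy1 at 0.19 ± 0.09, Pdgfra at 0.17 ± 0.12 and Dcn at -0.21 ± 0.32 did not pass the test. In cultured TII cells Cryab was also higher than in fresh TII cells. There the brightest probe sets gave none of the 8 markers higher and 1 lower (median -0.05), against 20.5% and 14% of all genes. The mean signal of the 8 was 5.31 to 6.08 on cultured TII arrays. Of the other probe sets, those of Dcn passed the test at 1.17 and 1.21 and not at 0.63. Those of Col1a1 passed at 0.68 and not at 0.43 and 0.61. The part of fibroblasts in the Cryab signal was not tested.

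After culture, 4 of the 14 muscle markers were higher than in fresh TII cells and none lower, against 20.5% and 14% of all genes. The median of the 14 was -0.01, against -0.005 over all genes. Tagln read 10.6, 10.48 and 10.22 in cultured TII cells, against 5.26, 5.65, 5.24 and 5.45 in fresh TII cells. Acta1 read 8.43, 7.68 and 7.56 in cultured TII cells, against 5.57, 6.0, 5.66 and 5.99 in fresh TII cells. The other 2 were the cardiac troponin gene Tnnt2 at 0.53 ± 0.10 and the smooth muscle actin gene Acta2 at 0.47 ± 0.11 with its brightest probe set. Des, at 0.20 ± 0.10, and Myh11, at -0.20 ± 0.11, did not pass the test. Whether the cells that carried these 4 markers also carried Cryab was not tested.

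**Figure D2:**
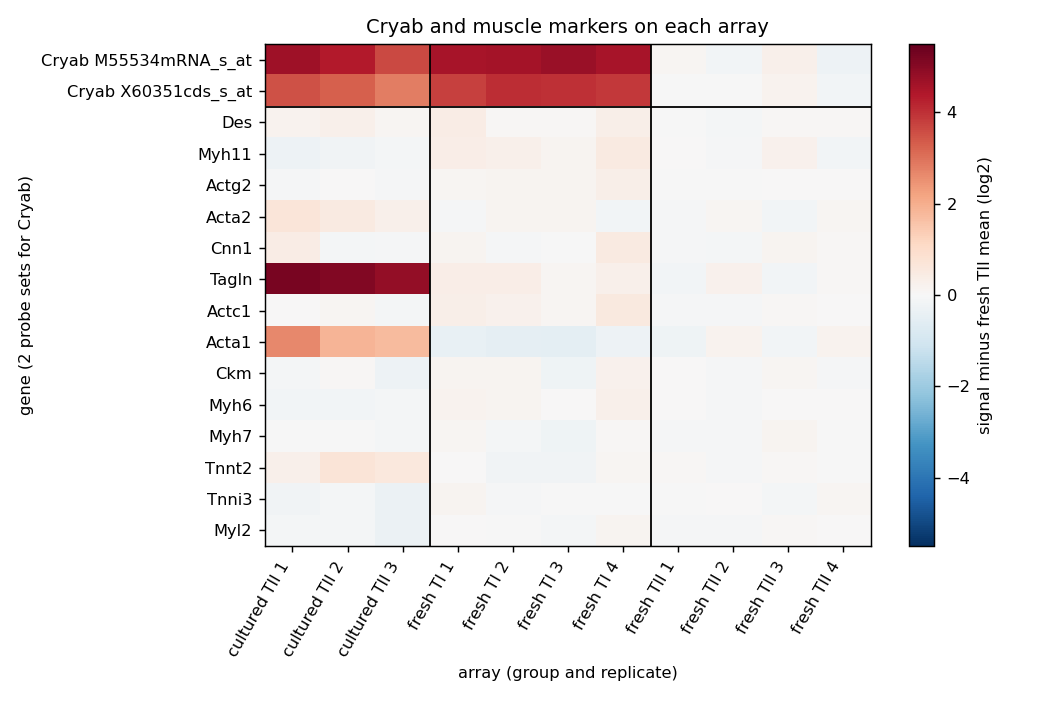
Signal of Cryab (2 probe sets) and of 14 muscle markers on each array, as the log2 difference from the mean of the fresh TII arrays (colour scale). Cryab is raised on all cultured TII and fresh TI arrays. With brightest probe sets, the muscle markers Tagln, Acta1, Tnnt2 and Acta2 are higher on cultured TII arrays, by 5.03, 2.09, 0.53 and 0.47. The other probe sets of Acta2 gave greater differences.

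Genes whose signal followed Cryab most closely were looked for by the root mean square distance between profiles over the 11 arrays, after each was centred on its mean. For M55534mRNA_s_at the nearest genes were Sparc, a matrix glycoprotein, at 0.25 (log2), the TI cell marker Pdpn at 0.38 and Lox, a matrix cross-linking enzyme, at 0.62. For X60351cds_s_at they were Sparc at 0.25, Pdpn at 0.35 and the anchoring protein Akap5, which is on the type I list, at 0.39. This ranking is a description, over arrays that fall into 3 groups.

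Hspb1, the small heat shock protein HSP27, went the other way from Cryab between the fresh cells on 3 of its 4 probe sets. With rc_AA998683_g_at it read 10.65, 9.97 and 9.49 in cultured TII cells, 9.53, 9.53, 9.48 and 9.54 in fresh TI cells, and 10.5, 10.55, 10.64 and 10.66 in fresh TII cells. With rc_AI176658_s_at it read 11.22, 10.57 and 10.11 in cultured TII cells, 9.99, 9.98, 10.13 and 10.17 in fresh TI cells, and 10.85, 10.91, 11.18 and 11.03 in fresh TII cells. Fresh TI arrays lay below every fresh TII array on both, and cultured arrays spread over the range of both fresh groups, with array 1 the highest and array 3 the lowest.

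In fresh TI against fresh TII cells Hspb1 fell by 1.07 with rc_AA998683_g_at (SE 0.18, adjusted p = 0.00031), by 0.93 with rc_AI176658_s_at (SE 0.18, adjusted p = 0.000957) and by 0.67 with M86389cds_s_at (SE 0.14, adjusted p = 0.0021), all on the log2 scale. After quantile normalization these were -0.71, -0.57 and -0.31, and the last no longer passed (adjusted p = 0.13). The fourth probe set, rc_AA998683_at, read 8.31 to 8.61 in fresh TI cells and 7.97 to 8.54 in fresh TII cells, a difference of 0.19 ± 0.13 that did not pass the test (adjusted p = 0.227) and that rose past it, at 0.48, after quantile normalization (adjusted p = 0.0198). It shares its source sequence with rc_AA998683_g_at, so the probe sets of this gene disagree.

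The Hspb1 calls of cultured TII against fresh TII cells depended on single arrays. The 4 probe sets differed by -0.27, -0.46, -0.55 and -0.36, and rc_AA998683_at (adjusted p = 0.0227) and rc_AA998683_g_at (adjusted p = 0.0415) passed the threshold. Without cultured array 3 none of the 4 passed it, at -0.08, -0.40, -0.27 and -0.10, and without cultured array 1 all 4 passed it, at -0.49, -0.51, -0.85 and -0.65. Leaving out other single arrays also ended the calls: rc_AA998683_g_at kept its call without cultured array 1 and without fresh TI array 4, and lost it without any other array (adjusted p = 0.0516 to 0.194). The probe set rc_AA998683_at lost its call also without cultured array 2, fresh TII array 2 or fresh TII array 4 (adjusted p = 0.0573, 0.0695 and 0.0669). Against fresh TI cells, cultured TII cells gave other signs: M86389cds_s_at, rc_AA998683_g_at and rc_AI176658_s_at were higher by 0.40, 0.52 and 0.57 (adjusted p = 0.0414, 0.0308 and 0.0219), with overlapping arrays. Without cultured array 1 these were 0.17, 0.22 and 0.28, and none passed. Leaving out cultured array 2 or fresh TI array 1 or 3 also ended the call for M86389cds_s_at and rc_AA998683_g_at, leaving out fresh TI array 1 ended that for rc_AI176658_s_at, and leaving out fresh TI array 2 or fresh TII array 2 or 4 ended that for M86389cds_s_at. After quantile normalization they were -0.04, 0.07 and 0.21, and none passed. The probe set rc_AA998683_at was lower in cultured TII cells there, by -0.65 ± 0.14 (adjusted p = 0.00187), and by -0.98 after quantile normalization.

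Cultured arrays also differed in their cell markers. Type I markers averaged 8.15, 7.83 and 7.50 on cultured arrays 1, 2 and 3, and type II markers averaged 6.77, 6.20 and 5.94, so array 3 was the lowest of the cultured arrays for both lists, as it was for both Cryab and all 4 Hspb1 probe sets. Fibroblast markers averaged 5.93, 6.08 and 5.31 on the same arrays, lowest on array 3 as well. Leukocyte and macrophage markers averaged 5.46, 5.68 and 6.0, highest on array 3. Single markers did not all follow their list average. On arrays 1, 2 and 3 the type I marker Pdpn read 9.2, 9.37 and 9.47, and the type II marker Sftpb read 7.04, 7.0 and 7.09. The fibroblast marker Dcn read 6.63, 8.05 and 8.6, and the leukocyte list's Csf1r read 4.67, 4.75 and 4.62. The part of these marker differences in the spread of Cryab and Hspb1 was not tested.

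The RefSeq promoter of Hspb1 is shown because its upstream bases hold letters of the heat shock element, and because it differs in that from the promoter of Hsp90ab1. Both are the 250 bases before the annotated start in the GRCr8 assembly, 5′ to 3′, at chr12:26432302-26432551 on the minus strand for Hspb1 and at chr9:22930173-22930422 on the plus strand for Hsp90ab1. Capitals mark matches to GAANNTTC or TTCNNGAA, searched on both strands.
Hspb1: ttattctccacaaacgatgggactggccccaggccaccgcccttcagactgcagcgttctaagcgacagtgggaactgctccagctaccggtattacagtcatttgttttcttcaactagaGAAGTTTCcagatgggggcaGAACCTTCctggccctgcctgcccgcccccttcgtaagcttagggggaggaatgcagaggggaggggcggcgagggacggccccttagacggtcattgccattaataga
Hsp90ab1: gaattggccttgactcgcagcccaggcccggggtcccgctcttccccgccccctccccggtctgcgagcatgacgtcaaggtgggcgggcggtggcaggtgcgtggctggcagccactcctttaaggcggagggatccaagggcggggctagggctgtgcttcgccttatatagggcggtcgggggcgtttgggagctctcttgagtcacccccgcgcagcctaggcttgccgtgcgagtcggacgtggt
Hspb1 holds GAAGTTTC at -129 to -122 and GAACCTTC at -109 to -102, counted from the start, and the Hsp90ab1 window holds no match. Of 33469 rat promoters, 7.23% hold GAANNTTC and 7.48% hold TTCNNGAA in the same window. A match is a run of letters and not a measured binding site, and no match says nothing about the factor.

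Hsp90ab1 encodes the constitutive cytosolic HSP90, which folds kinases and steroid receptors. All 4 of its probe sets were lower in fresh TI cells than in fresh TII cells. With S45392_at it read 10.56, 10.6 and 10.6 in cultured TII cells, 9.67, 9.71, 9.54 and 9.58 in fresh TI cells, and 10.52, 10.8, 10.7 and 10.92 in fresh TII cells. Fresh TI arrays lay below all other arrays, and cultured TII and fresh TII arrays overlapped. The other probe sets ran alike, with fresh TI arrays below every array of both other groups: rc_AI008074_s_at read 9.66 to 9.76 in cultured TII, 8.06 to 8.68 in fresh TI and 9.41 to 9.67 in fresh TII cells.

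In fresh TI against fresh TII cells Hsp90ab1 fell by 0.91 to 1.11 on the log2 scale over its 4 probe sets, which is 1.87-fold to 2.16-fold (adjusted p between 3.1e-07 and 1.42e-05). Cultured TII cells stood above fresh TI cells by 0.76 ± 0.09, 1.21 ± 0.13, 0.89 ± 0.10 and 0.96 ± 0.09. All of these 8 calls held under both other scalings, with smaller values: quantile normalization gave -0.53 to -0.80 for fresh TI against fresh TII cells and 0.34 to 0.80 for cultured TII against fresh TI cells, and a common median and standard deviation gave -0.67 to -0.91 and 0.46 to 0.99. Between cultured TII and fresh TII cells none of the 4 passed the test, at -0.14, 0.14, -0.08 and -0.15, and the 95% intervals ran from -0.34 at the lowest to 0.42 at the highest. The values are compatible with differences inside these intervals, so the lack of a call does not show equal levels. For S45392_at the genes with the nearest profiles were the polyamine enzyme gene Odc1 at 0.09, LOC102549726 at 0.12 and the non-coding RNA gene Gas5 at 0.12.

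Hspd1 and Hspe1, which encode HSP60 and its lid HSP10, were highest in cultured TII cells. Hspd1 with X54793_at read 9.33, 9.47 and 9.39 in cultured TII cells, 7.72, 7.86, 7.9 and 7.66 in fresh TI cells, and 8.45, 8.6, 8.65 and 8.63 in fresh TII cells. Hspe1 with rc_AI170613_at read 9.28, 9.43 and 9.51 in cultured TII cells, 7.86, 8.07, 8.13 and 7.32 in fresh TI cells, and 8.07, 8.17, 8.08 and 8.02 in fresh TII cells. All cultured arrays lay above all fresh arrays for both genes. Between the fresh groups Hspd1 did not overlap, and Hspe1 did.

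The other probe set of each gene gave the same order. Hspd1 with rc_AA858640_s_at read 8.33, 8.46 and 8.49 in cultured TII cells, 6.65, 7.11, 7.23 and 6.77 in fresh TI cells, and 7.5, 7.61, 7.53 and 7.54 in fresh TII cells. Hspe1 with rc_AI170613_g_at read 8.51, 8.57 and 8.62 in cultured TII cells, 6.91, 7.17, 7.31 and 6.48 in fresh TI cells, and 7.3, 7.36, 7.24 and 7.19 in fresh TII cells. Fresh TI arrays 2 and 3 were the highest of the fresh TI arrays for all 4 probe sets.

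Relative to fresh TII cells, in cultured TII cells Hspe1 rose by 1.32 ± 0.15 (2.5-fold, adjusted p = 1.74e-05) and 1.29 ± 0.15 (2.45-fold, adjusted p = 1.85e-05), and Hspd1 rose by 0.88 ± 0.12 (1.85-fold, adjusted p = 7.7e-05) and 0.81 ± 0.08 (1.76-fold, adjusted p = 4.12e-06). Relative to fresh TI cells the 4 probe sets rose in cultured TII cells by 1.49 to 1.61, about 2.8-fold to 3.06-fold. In fresh TI against fresh TII cells Hspd1 fell by 0.60 (SE 0.11, adjusted p = 0.000836) and 0.80 (SE 0.08, adjusted p = 2.6e-06) on the log2 scale. Hspe1 differed by -0.24 ± 0.14 (adjusted p = 0.167) and -0.31 ± 0.14 (adjusted p = 0.0802), which did not pass the test. Without fresh TI array 4 the Hspe1 differences were -0.07 and -0.15 (adjusted p = 0.527 and 0.206). With rc_AI170613_g_at the difference passed the threshold without fresh TI array 2, at -0.38 (adjusted p = 0.0489), and without fresh TI array 3, at -0.42 (adjusted p = 0.0182).

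Fresh TI array 4 was also the array with the least type II marker signal, 8.34 against 9.10, 9.82 and 9.84 on fresh TI arrays 1, 2 and 3. The part of TII cells or their RNA in the fresh TI values of Hspd1 and Hspe1 was not tested. Nearest in profile to Hspe1 were the ubiquilin gene Ubqln1 at 0.13 and 0.09, the glycolytic enzyme gene Eno1 at 0.12 and 0.11 and the purine salvage gene Hprt1 at 0.12 and 0.11 for rc_AI170613_at and rc_AI170613_g_at. Nearest to Hspd1 were Rab11a, Canx and Aldh7a1 for rc_AA858640_s_at and Nop58, Aldh7a1 and Me1 for X54793_at, at 0.11 to 0.13.

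Hspd1 and Hspe1 lie next to each other on rat chromosome 9 with no annotated gene between them and are transcribed away from each other, with starts 290 bases apart. The stretch that belongs to the upstream window of both is shown because the genes moved together in culture. It is chr9:64084077-64084287 in GRCr8, 211 bases on the plus strand (the strand of Hspe1), and capitals mark overlapping matches to GAANNTTC and TTCNNGAA.
Hspd1 and Hspe1: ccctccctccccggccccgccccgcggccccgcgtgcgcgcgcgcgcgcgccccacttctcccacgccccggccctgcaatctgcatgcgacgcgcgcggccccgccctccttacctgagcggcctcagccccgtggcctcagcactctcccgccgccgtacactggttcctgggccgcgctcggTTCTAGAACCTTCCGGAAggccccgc
The capitals form 1 run of 18 bases, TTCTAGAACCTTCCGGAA, which lies 48 to 65 bases before the Hspe1 start and 225 to 242 bases before the Hspd1 start. It holds the longer pattern of GAANNTTC followed, after any 2 bases, by GAA, which 0.663% of the 33469 promoters (222) hold on either strand. No measurement here bears on binding at this site.

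**Figure D3:**
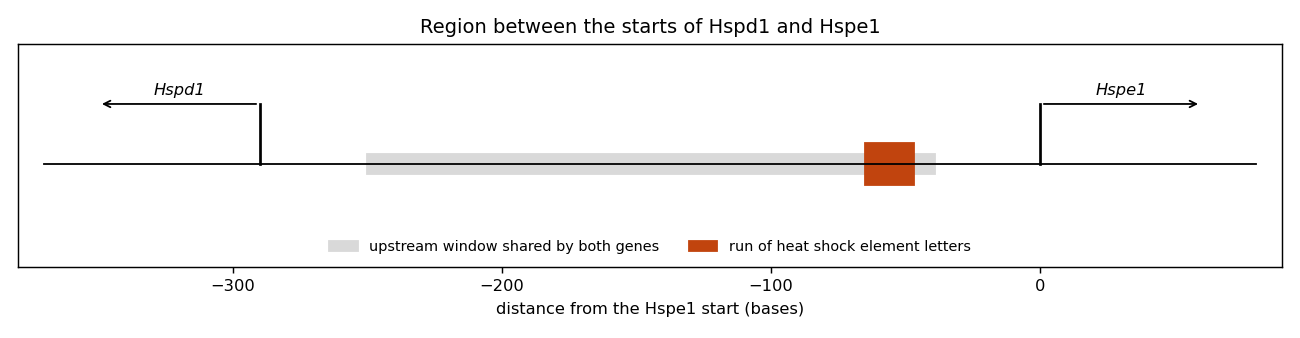
Map of the region between the starts of Hspd1 and Hspe1, in bases from the Hspe1 start; arrows give the direction of transcription, the grey bar is the 211-base window upstream of both genes and the red box is the 18-base run of heat shock element letters. The run lies 48 to 65 bases before the Hspe1 start.

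Over the 14 probe sets, 2 (both of Cryab) were higher and 9 were lower in TI than in TII cells when fresh, against 34.3% and 20.4% of all probe sets. The arrays of the groups did not overlap for 11 of the 14, against 50.7% of all probe sets, and the median difference was -0.74. In cultured TII against fresh TII cells 6 were higher and 2 lower, against 19.1% and 14.3% of all, 7 did not overlap, against 43.3%, and the median was 0.03. In cultured TII against fresh TI cells 11 were higher and 2 lower, against 24.2% and 35.7% of all, 10 did not overlap, against 57.3%, and the median was 0.82. Probe sets of 1 gene are not independent of each other, and Hspb1 and Hsp90ab1 give 8 of the 14. The comparisons share arrays.

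**Figure D4:**
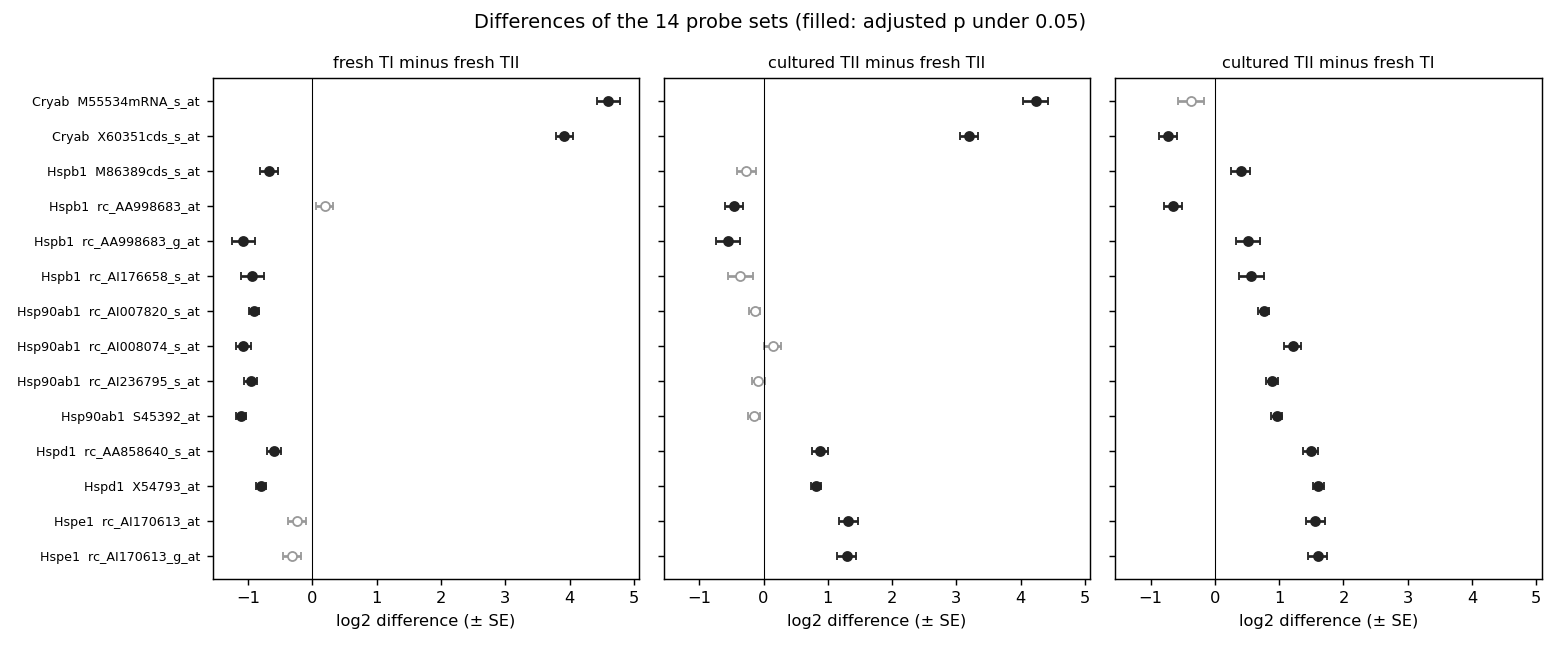
Log2 difference (± SE) of the 14 probe sets, with fresh TI less fresh TII cells on the left, cultured less fresh TII cells in the middle and cultured TII less fresh TI cells on the right; filled points have an adjusted p under 0.05. Cryab stands at 3.20 to 4.60 against fresh TII cells, and Hspd1 and Hspe1 are above 0 in both comparisons of cultured cells.

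The rest of the heat shock system was read from lists of 31 further measured genes. In fresh TI against fresh TII cells 5 were higher and 14 lower, against 33% and 21.2% of all 4736 genes, with a median of -0.21 against 0.111 over all genes. In cultured TII against fresh TII cells 14 were higher and 8 lower, against 20.5% and 14%, with a median of 0.17 against -0.005. In cultured TII against fresh TI cells 19 were higher and 4 lower, against 25.8% and 34.2%, with a median of 0.49 against -0.107. The medians kept their sign under quantile normalization and under a common median and standard deviation.

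Hspa1a and Dnajb1, inducible chaperone genes of the cytosol, were highest in fresh TII cells. Hspa1a, an HSP70 gene nearly identical to Hspa1b and not separable from it here, was lower by -2.24 ± 0.43 (adjusted p = 0.000955) in fresh TI and by -2.64 ± 0.46 (adjusted p = 0.000542) in cultured TII cells than in fresh TII cells. Its J-protein partner Dnajb1 was lower by -2.43 ± 0.24 in fresh TI and by -1.94 ± 0.25 in cultured TII cells. Hsph1, an HSP110 that resets HSP70, was lower in fresh TI cells by -1.79 ± 0.20 and did not pass the test in cultured TII cells at -0.11 ± 0.22. Over the 7 measured HSP70 and HSP110 genes, 1 was higher and 4 were lower in fresh TI cells, and 2 were higher and 2 lower in cultured TII cells, each against fresh TII cells. Of the 7 J-protein genes, 1 was higher and 4 were lower in fresh TI, and 2 were higher and 3 lower in cultured TII cells. For all genes the shares were 33% up and 21.2% down in the fresh comparison, and 20.5% up and 14% down after culture. List medians in that order were -1.02 and 0.08 for HSP70 and HSP110, and -0.27 and -0.08 for J-proteins. The medians over all genes were 0.111 and -0.005.

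The heat shock factor gene Hsf1 did not pass the test in any of the 3 comparisons, at 0.19 ± 0.08 between fresh TI and fresh TII cells, -0.01 ± 0.08 between cultured TII and fresh TII cells and -0.19 ± 0.08 between cultured TII and fresh TI cells. This depends on the scaling: after quantile normalization it was called higher in fresh TI than in fresh TII cells, at 0.39, and lower in cultured TII than in fresh TI cells, at -0.47, and with a common median and standard deviation it was called likewise, at 0.29 and -0.32. The immediate early genes, which cell isolation can switch on, were set beside these values. Of 15 measured, 14 were lower and none higher in fresh TI than in fresh TII cells (median -1.97), and 14 were lower and none higher in cultured TII than in fresh TII cells (median -2.50). Their mean signal was 6.99 to 7.11 on cultured TII, 7.27 to 7.57 on fresh TI and 9.29 to 9.44 on fresh TII arrays. Over all genes 33% were higher and 21.2% lower in fresh TI than in fresh TII cells. For cultured TII against fresh TII cells the shares were 20.5% and 14%. The airway genes Scgb1a1 and Cyp2f4 and the antigen presentation gene Cd74 were also highest on fresh TII arrays. The club cell gene Scgb1a1 averaged 8.40 in cultured TII, 7.71 in fresh TI and 11.02 in fresh TII cells. Cyp2f4 averaged 5.68 in cultured TII, 5.99 in fresh TI and 10.06 in fresh TII cells. Cd74, which helps load antigen, averaged 7.41 in cultured TII, 9.13 in fresh TI and 11.03 in fresh TII cells. Of 5 airway markers, 2 were higher and 3 lower in fresh TI, and none higher and 3 lower in cultured TII cells, each against fresh TII cells. The 2 higher ones were Muc5ac at 0.34 ± 0.07 and Krt5 at 0.45 ± 0.10. Cd74 is on the leukocyte and macrophage list, where of 5 markers 1 was higher and 2 were lower in fresh TI cells. In cultured TII cells 1 of that list was higher and 1 lower, both again against fresh TII cells. The part of other cell types or of the isolation in the levels of Hspa1a, Dnajb1, Hspb1 and Hsp90ab1 was not tested.

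Of 8 measured co-chaperones of HSP70 and HSP90, 7 were higher and none lower in cultured TII than in fresh TII cells (median 0.64). Over all genes 20.5% were higher and 14% lower there. All 8 were higher than in fresh TI cells (median 0.86), against 25.8% of all genes. The kinase co-chaperone Cdc37 was higher by 1.23 ± 0.08, the HSP70 cofactor St13 by 1.19 ± 0.08, the HSP70 to HSP90 adaptor Stip1 by 0.88 ± 0.08 and the mitochondrial nucleotide exchange factor Grpel1 by 0.77 ± 0.09 in cultured TII against fresh TII cells. Both measured subunits of the cytosolic chaperonin were higher too, Cct3 by 0.83 ± 0.10 and Cct6a by 0.73 ± 0.07. Of the 4 other mitochondrial genes, Hspa9, Grpel1 and Trap1 were higher and the disaggregase gene Clpb was lower by -0.95 ± 0.14. Hspa9 is also counted among the HSP70 genes, and Grpel1 among the co-chaperones. Hspa9, the mitochondrial HSP70, was higher by 0.63 ± 0.16 with its brightest probe set, while its other probe sets stood at 0.05, which did not pass, and 1.04.

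**Figure D5:**
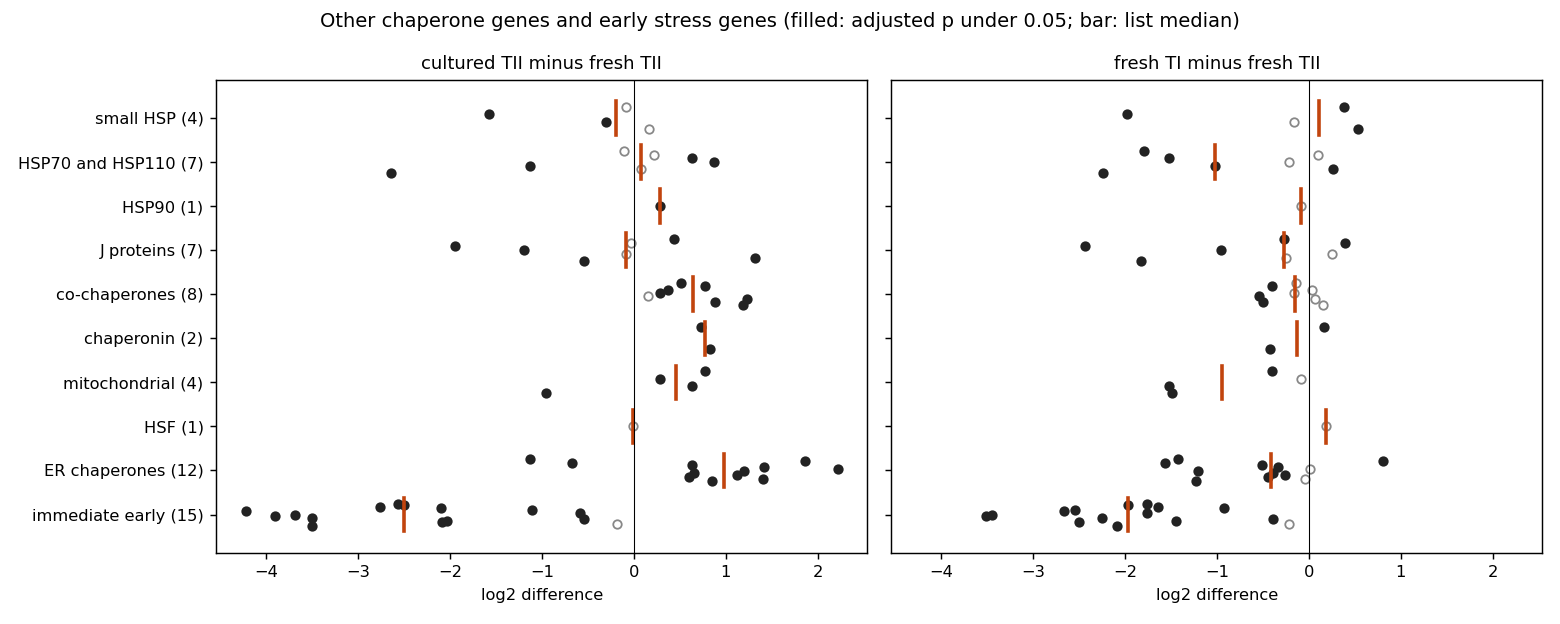
Log2 differences of other chaperone genes, by list, and of immediate early genes, in cultured TII minus fresh TII cells (left) and fresh TI minus fresh TII cells (right); filled points have an adjusted p under 0.05, the red bar is the list median and the number of genes stands in brackets. Co-chaperones have a median of 0.64 in cultured TII cells and -0.15 in fresh TI cells.

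The chaperones of the endoplasmic reticulum, a separate folding system, were counted beside those of the cytosol and mitochondria. Of 12 genes on that list, 10 were higher and 2 lower in cultured TII than in fresh TII cells (median 0.99), with Pdia4, a disulfide isomerase, at 2.22 ± 0.09, the collagen chaperone Serpinh1 at 1.86 ± 0.12 and the HSP90 of this compartment, Hsp90b1, at 1.41 ± 0.09. The 2 that were lower, Ddit3 at -1.13 ± 0.13 and Dnajb9 at -0.67 ± 0.18, are a transcription factor gene of the stress response and a J-protein gene. In fresh TI against fresh TII cells 1 was higher and 9 were lower (median -0.42), and 2 were higher and 6 lower after quantile normalization. Over all genes 20.5% were higher and 14% lower in cultured TII against fresh TII cells. For fresh TI against fresh TII cells the shares were 33% and 21.2%. Hspa5, the HSP70 of this compartment, was lower by -1.23 ± 0.14 in fresh TI cells and higher by 0.85 ± 0.15 in cultured TII cells with its brightest probe set. Its other probe sets stood at -1.49 and 0.16 in fresh TI cells and at 0.97 and 0.16 in cultured TII cells. The values of 0.16 did not pass the test.

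Among the other small heat shock proteins, Hspb2, which neighbours Cryab in the genome with no gene between them, was higher by 0.54 ± 0.06 (adjusted p = 1.79e-05) in fresh TI than in fresh TII cells, at means of 7.44 and 6.91. Between cultured TII and fresh TII cells it differed by 0.17 ± 0.07 (adjusted p = 0.0691). Hspb11, which is now known as a part of the intraflagellar transport machinery, was lower by -1.98 ± 0.12 in fresh TI and by -1.57 ± 0.13 in cultured TII cells. The lens crystallin gene Cryaa differed by 0.38 ± 0.08 in fresh TI cells (adjusted p = 0.00224) and did not pass in cultured TII cells at -0.08 ± 0.09.

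Control probe sets for the 3′ and 5′ ends of transcripts gave a measure of RNA quality beside these values. The 3′ minus 5′ difference (log2) was -0.33 to -0.08 in cultured TII, 0.21 to 0.42 in fresh TI and 0.32 to 0.43 in fresh TII cells for beta-actin, and for Gapdh it was 0.30 to 0.45 in cultured TII, 0.41 to 0.69 in fresh TI and 0.47 to 0.57 in fresh TII cells. The cultured arrays thus stood apart for beta-actin, and its part in the values of cultured cells was not tested.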

How the data were processed

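The deposited series matrix holds 1 log2 value per probe set and array for 11 Affymetrix rat arrays, as processed by the authors, and how they corrected background, summarised probes and normalized was not stated in the labels. The base of the logarithm was inferred from the values: the highest, 13.163, would be 520737 as a natural logarithm, above the 65535 of a 16-bit scanner, and 9172 as log2. Of 8799 probe sets, 59 controls were set aside and 8740 were tested with no filter. The annotation gave 1 gene for 7006 probe sets, several for 308 and none for 1426. For gene lists the brightest probe set stood for each of 4736 genes.

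Differences were fitted over all 11 arrays as 3 group means with limma 3.58.1 (lmFit and eBayes, 2-sided) in R 4.3.3 and adjusted by Benjamini-Hochberg over 8740 probe sets, with a call at an adjusted p under 0.05. The procedure was tested on simulated normal data with 200 of 8740 probe sets changed, fewer than were called in the real data. It recovered 81% to 84% of 1.5-fold and 92% to 98% of 2-fold changes. False calls were 8 of 187 for fresh TI against fresh TII and 6 of 186 for cultured TII against fresh TII. For cultured TII against fresh TI they were 16 of 189. The named genes are all 14 member probe sets and, of each list, up to 6 called genes with the greatest absolute difference, others being given where a list or comparison turns on them. The members and lists were chosen with earlier results of these data known. The 3 or 4 arrays per group limit the precision. Promoters are from RefSeq (GRCr8), where 4 of 5 genes matched. Alternatives were other scalings, a filter on dim probe sets, another variance model, 2-group fits, a replicate block, a stricter threshold and leaving out each array.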

Additional observations from a re-analysis of the deposited data

Results flagged for a closer look

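Of 28 groups of 4 arrays among the member probe sets, 3 held an array far from the other 3, where chance gives about 1.4. All 3 were fresh TI groups. Cryab with M55534mRNA_s_at read 9.44 on array 3, against 9.22 to 9.26 on the others, and the gap was 0.845 of the whole range. Hspb1 with rc_AA998683_g_at read 9.48 on array 3, against 9.53 to 9.54 on the others, and the gap was 0.852 of a range of 0.06 (log2). Hsp90ab1 with rc_AI008074_s_at read 8.06 on array 4, against 8.60 to 8.68 on the others, and the gap was 0.861 of the range. Without that array the difference from fresh TII cells was -0.93 (adjusted p = 9.51e-07), against -1.07 with it.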

How the results depend on the processing

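Each of the 42 member results was recomputed under 17 alternatives, and 665 of 714 values kept their direction and their side of the threshold. Hspb1 changed its call most often, in 9 of its 12 results, and Hspd1 in none of 6. After quantile normalization Hsp90ab1 with rc_AI236795_s_at turned to 0.10 in cultured TII against fresh TII cells (adjusted p = 0.484), and Hspb1 with M86389cds_s_at turned to -0.04 in cultured TII against fresh TI cells (adjusted p = 0.848); the cause was not tested. Without the dimmer probe sets, where fewer are tested, 2671 were called in fresh TI against fresh TII cells (1337 higher, 1334 lower, against 2996 and 1787) and 2993 in cultured TII against fresh TI cells (1618 higher, 1375 lower, against 2111 and 3124). With a common median and standard deviation the splits were 2252 higher and 2005 lower, and 2323 higher and 2294 lower. Leaving out 1 array gave 11 to 12, 6 to 10 and 10 to 13 member calls for fresh TI against fresh TII, for cultured against fresh TII and for cultured TII against fresh TI cells, and 3944 to 4986, 2491 to 3212 and 4543 to 5468 calls over all probe sets. Taking replicate numbers as a block gave member calls of 12, 7 and 12, against 11, 8 and 13 without it. Hspe1 with rc_AI170613_g_at was then called in fresh TI against fresh TII cells (-0.31, adjusted p = 0.038), and Hspb1 lost 1 call in each comparison of cultured cells, rc_AA998683_g_at against fresh TII (adjusted p = 0.0569) and M86389cds_s_at against fresh TI cells (adjusted p = 0.0562). Deviations from the group means correlated at -0.20 to 0.28 between arrays of the same number and at -0.27 to 0.23 between others, so the numbers were not used to pair arrays.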
